A study of Mus musculus with 45 samples.

Results

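Mammalian genomes carry long interspersed elements (LINEs) that are far older than the L1 elements still able to move in the mouse. The 25 repeat families described here are the rows of the 4 repeat tables of this series whose class is LINE and whose family is not L1. They were taken from 1146 repeat families, of which 133 others were L1. By the family names in the tables, 15 belonged to CR1, 4 to L2, 4 to RTE-X, 1 to RTE-BovB (X3_LINE) and 1 to Dong-R4 (Mam_R4).

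L2, CR1 and RTE are clades of non-LTR retrotransposons, elements that copied themselves through an RNA intermediate. L2 and the L3 branch of CR1 spread in ancestors of today's mammals and no longer move, and what is left of them is mostly short, diverged fragments within introns and between genes. MIR, a short interspersed element of similar age, has an end related to that of L2. In mouse embryonic stem cells (mESCs) EHMT2, a methyltransferase that places H3K9me2, represses the endogenous retrovirus MERVL, whose activity marks 2-cell-like cells (2CLCs), a rare state that resembles the blastomeres of the 2-cell embryo.

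RNA was sequenced from 45 libraries in 15 groups of 3. EHMT2-dTAG mESCs (BL6/129 strain, FBS/LIF medium), in which EHMT2 carries a degron tag with mCherry in the DMSO controls as well, received DMSO or the degrader dTAG-13 for 24 h or 7 d (time course), or for 15 d, with a Recovery group given dTAG for 7 d and then 8 d without it (washout). In the time course and washout each group held 1 library from each of the same 3 clones. The sorting experiment used cells that also carry GFP driven by MERVL. After 72 h of treatment the cells without GFP (mESC) were sorted from those with it (2CLC), so a higher MERVL level in the 2CLC groups follows from the sort. In the fourth experiment 3 clones each of WT J1 mESCs and Dppa4 KO mESCs, made with CRISPR/Cas9, were kept for 48 h in DMSO or in UNC0638, which inhibits both EHMT2 and its partner EHMT1. For the first 3 experiments the tables used here hold 1 mean per group, so their ratios have no error and no test. A sorted or bulk library cannot tell fewer cells that express a repeat from less RNA per cell.

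The Dppa4 transcript had 700.4 to 920.5 normalized counts in the 6 WT libraries and 0 in the 6 KO libraries. The 8 pluripotency markers summed to 27498 to 72322 in the group means, and within the sorting experiment the 2CLC groups had the lowest sums. All 10 markers of 2CLCs summed to 883 in DMSO mESC and 153671 in DMSO 2CLC. Of the 8 fibroblast markers, which read the feeder cells, Lum was at 0 in 3 of the 11 group means. Library 3 of KO UNC0638 stood apart, with 2.41% of its reads in repeats against 2.91% to 5.99% in the other 11.

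Together the 25 families made up a small part of the RNA, and L2 made up most of it. Their summed normalized counts (reads divided by the authors' size factors) were 6471 to 8393 in the time course and 4493 to 5255 in the washout. In the sorting experiment they were 10296 to 23972, and such levels are compared only within an experiment. The families were 0.418% to 1.53% of all repeat counts in the 11 group means. In the 12 libraries of the Dppa4 experiment 3799 to 7968 reads fell on them, which was 0.987% to 1.60% of the repeat reads. The 4 L2 families held 81.6% of these counts in the Dppa4 experiment, 86.7% in the time course, 82.9% in the washout and 75.3% in the sorting experiment. L2a alone held 28.2%, and L3, the CR1 family with the most counts, 11.9% in the Dppa4 experiment. These are shares of reads over all copies of a family. They are not corrected for the length or the number of its copies. At the other end, X7D_LINE had 0 reads in all 12 libraries, X2_LINE 3 and Mam_R4 10.

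**Figure D1:**
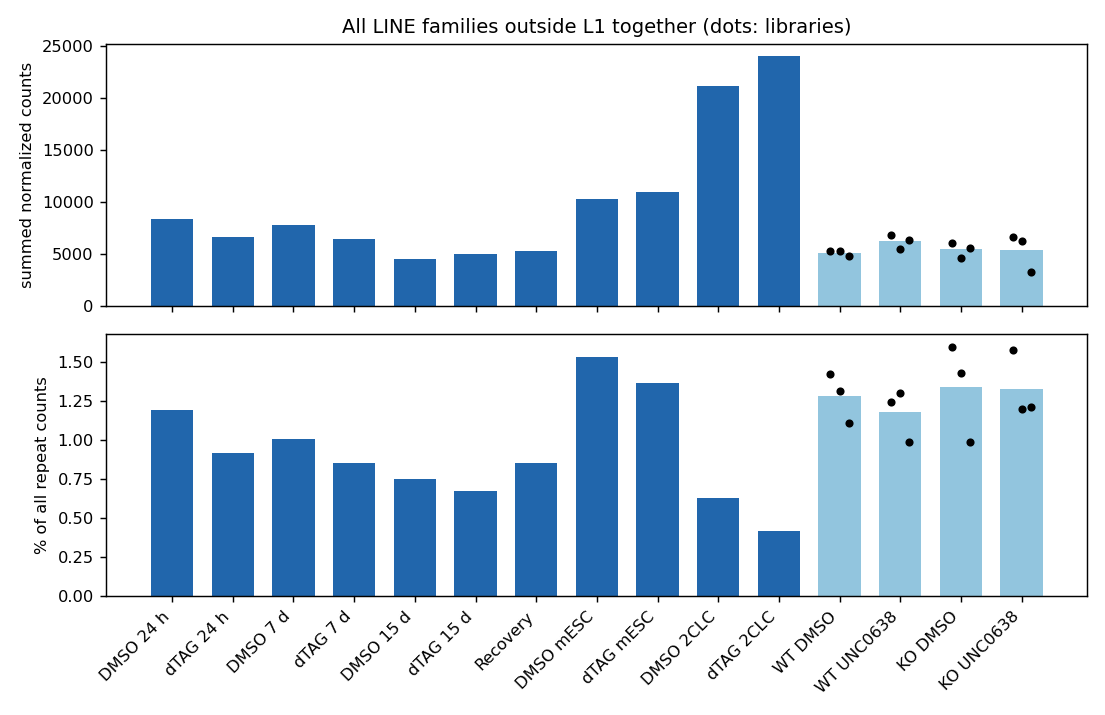
Summed normalized counts of the 25 LINE families outside L1 (top) and their share of all repeat counts in percent (bottom) in the 15 groups. Dark bars are the authors' group means, pale bars the mean of 3 libraries shown as dots, and levels may be compared only within an experiment because the tables were normalized separately. Within the sorting experiment the 2CLC groups had the highest sums, at 21151 and 23972, and the lowest shares of repeat counts, at 0.631% and 0.418%. Those repeat counts include MERVL-int, of the element that drives the sorted GFP. It held 1.64e+06 of 3.35e+06 repeat counts in DMSO 2CLC and 3.26e+06 of 5.73e+06 in dTAG 2CLC.

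X7C_LINE, a CR1 family, was several times higher in dTAG than in DMSO at all 3 times, and after washout it was back near DMSO. Its mean was 5.45 normalized counts in DMSO and 31.8 in dTAG at 24 h, 10.8 and 92.2 at 7 d, and 9.61 and 153 at 15 d. These were ratios of 5.84, 8.55 and 16.0. In the Recovery group it was 13.8, which was 1.43 times the DMSO 15 d mean and 0.0896 times the dTAG 15 d mean. At 24 h and 15 d the DMSO mean was under 10 counts, the minimum used for the families, and X7C_LINE passed that minimum there through the dTAG groups. Fibroblast markers summed to 2184 against 1731 at 24 h, 2268 against 1462 at 7 d and 3610 against 2686 at 15 d in dTAG against DMSO, and to 1061 in Recovery. Their part in these ratios was not tested. The 10 markers of 2CLCs summed to 2704 against 209, 7966 against 336 and 14731 against 564, and to 902 in Recovery.

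The other members with a mean of at least 10 counts over the experiment stayed within 2-fold of DMSO in the time course and the washout, with the exception of Plat_L3, a CR1 family, at 7 d. Ratios are given from here on as log2 of the mean plus 1, over families with a mean of at least 10 counts over the groups of the experiment, and 1 on this scale is 2-fold. At 24 h, 1 of 13 members that reached this minimum was past 2-fold, X7C_LINE at 2.35, against 1.93% of the 724 repeat families. The others ran from -0.64 in L4_A_Mam through -0.54 in L3b and -0.44 in L2b to 0.37 in CR1_Mam, and the median of all repeat families was -0.25. At 7 d, 2 of 13 were past 2-fold, X7C_LINE at 2.98 and Plat_L3, which went from 24.3 to 11.1 counts, at -1.07, against 4.97% of all families. L4_A_Mam had 0.39 and X3_LINE 0.15, while the 4 L2 families lay between -0.34 and -0.27, and the median of all families was -0.12.

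At 15 d, 1 of 12 members was past 2-fold, X7C_LINE at 3.86, against 10.2% of 640 families, 63 of them higher and 2 lower. Plat_L3 had 0.54 and L4_A_Mam 0.53, the L2 families 0.07 to 0.20, L3 0.02, X3_LINE -0.12 and CR1_Mam -0.58. The median of all families was 0.27 and that of L1 0.37, with 11 of 103 L1 families past 2-fold higher. In Recovery against DMSO 15 d, 0 of 12 members passed 2-fold (background 0.938%), and Plat_L3 at 0.81, L4_A_Mam at 0.63 and X7C_LINE at 0.48 were the highest and X3_LINE at -0.11 the lowest. In Recovery against dTAG 15 d, 1 of 12 did (background 4.69%), X7C_LINE at -3.39, and the others lay between -0.15 in L3b and 0.55 in CR1_Mam. The 3 washout comparisons share groups and are not independent of each other.

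**Figure D2:**
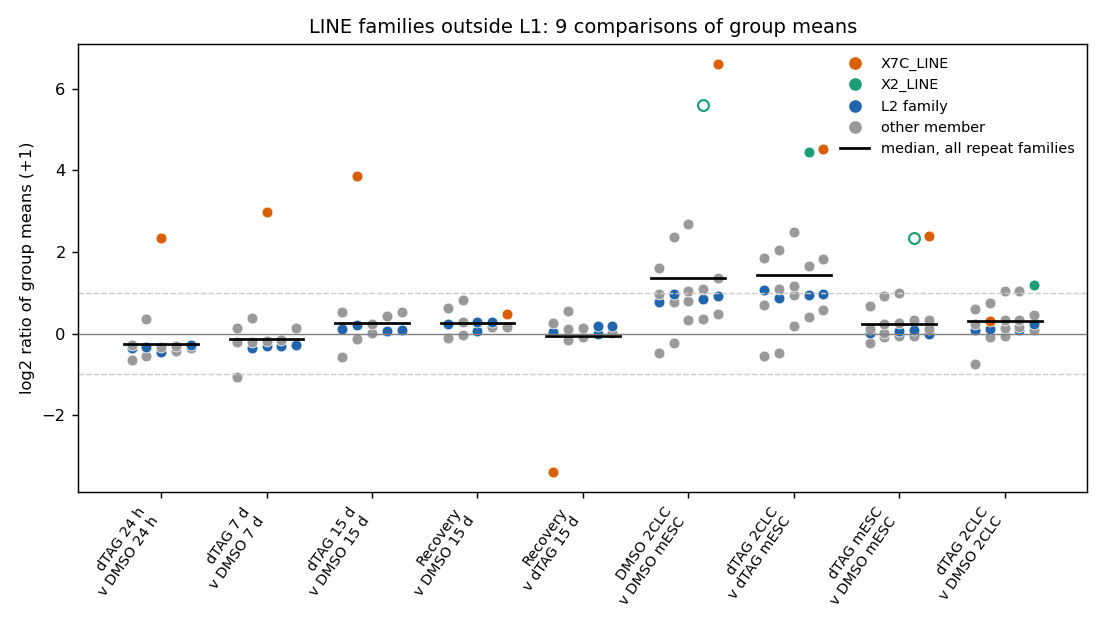
Log2 ratio of the group means plus 1 for each LINE family outside L1 with a mean of at least 10 counts over the experiment, in 9 comparisons. X7C_LINE is orange, X2_LINE green, L2 blue and other members grey, the black bar is the median of all repeat families, dashed lines mark 2-fold, and open symbols rest on a group listed at 0. X7C_LINE had 2.35, 2.98 and 3.86 in dTAG against DMSO at 24 h, 7 d and 15 d, and the L2 families lay within -0.44 and 0.29 in the first 5 comparisons.

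In sorted cells X7C_LINE was far higher in 2CLCs than in mESCs, and in mESCs it was higher with dTAG. Its means were 25.5 normalized counts in DMSO mESC, 137 in dTAG mESC, 2568 in DMSO 2CLC and 3173 in dTAG 2CLC. The 2CLC mean was 101 times the mESC mean in DMSO and 23.1 times in dTAG. dTAG against DMSO gave a ratio of 5.40 in mESC and 1.24 in 2CLC. The paper gives a lower bound for the purity of the sorted cells that is short of complete. What GFP-positive cells left in the mESC groups add to their means was not tested.

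MERVL-int, the internal part of MERVL, and MT2_Mm, its long terminal repeat, are given beside X7C_LINE. With the authors' size factors their direction was the same in these 9 comparisons. In some of these most repeat families shared it. In 2CLC against mESC in DMSO 884 of 911 families were above 0, and for dTAG in sorted 2CLC 717 were. At 24 h 169 of 724 were. At 24 h, 7 d and 15 d the log2 ratio of MERVL-int was 2.44, 3.98 and 4.71. It was 0.97 in Recovery against DMSO and -3.74 in Recovery against dTAG. In 2CLC against mESC it was 7.90 in DMSO and 5.37 in dTAG, where X7C_LINE had 6.60 and 4.52. dTAG against DMSO gave 3.52 in sorted mESC and 0.99 in sorted 2CLC for MERVL-int, and 2.39 and 0.31 for X7C_LINE. In sorted 2CLC the X7C_LINE value was near the median of all repeat families, 0.30. MT2_Mm had 2.16, 3.76 and 4.51 at the 3 times and 7.76 and 5.37 in 2CLC against mESC.

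The quotient of X7C_LINE counts to MERVL-int counts was higher in the Dppa4 KO libraries than in the WT libraries. X7C_LINE itself was not higher in KO, with a log2 fold change of -0.08 in DMSO and -1.55 in UNC0638. The quotient is one of read counts, not corrected for length, and is compared only across groups. Per 1000 counts of MERVL-int it had 1.03 in DMSO and 1.11 in dTAG at 24 h, 2.12 and 1.15 at 7 d, 1.71 and 1.04 at 15 d, and 1.25 in Recovery. The sorted groups had 3.69 in DMSO mESC, 1.74 in dTAG mESC, 1.56 in DMSO 2CLC and 0.975 in dTAG 2CLC. In the 6 KO libraries it was 8.87 to 34.9, and in the 6 WT libraries 1.44 to 6.21. All KO libraries lay above all WT libraries. This quotient has the low level of MERVL-int in the KO libraries below the line, at 444 to 1407 counts against 2199 to 53609 in WT. It was not taken for other families, so the separation cannot be read as particular to X7C_LINE.

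**Figure D3:**
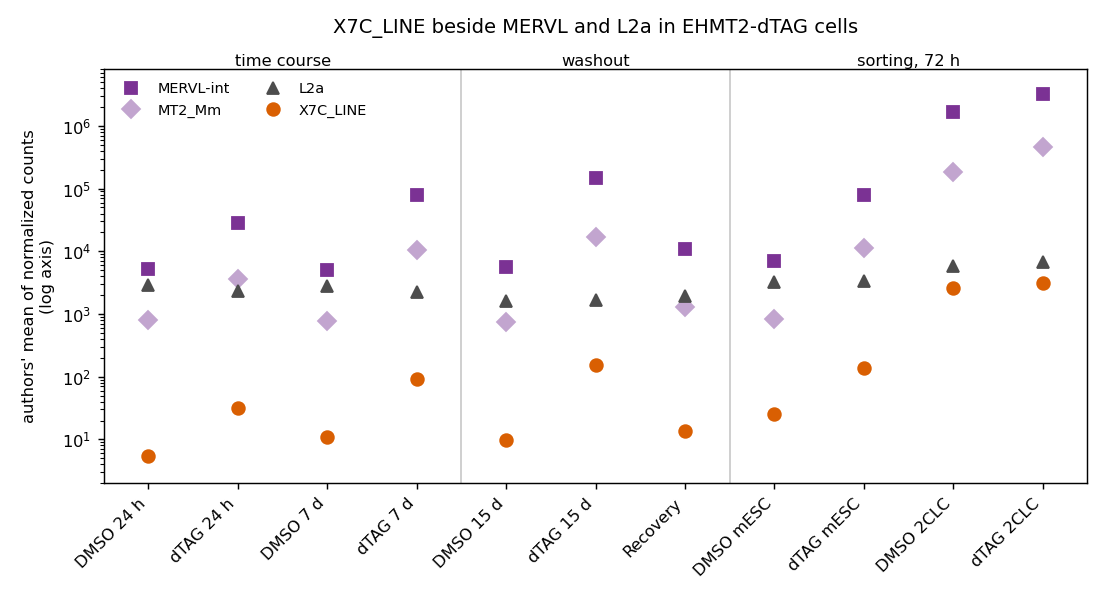
Authors' mean of normalized counts, on a log axis, of X7C_LINE, MERVL-int, MT2_Mm and L2a in the 11 groups of EHMT2-dTAG cells. X7C_LINE lay at 5.45 to 25.5 in the DMSO groups that were not 2CLC and at 2568 and 3173 in the 2CLC groups, while L2a stayed between 1589 and 6698. These ranges cross experiments that were normalized separately, so levels may be compared only within an experiment.

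By the rule of likeness used here, the 5 repeat families closest to X7C_LINE over the 15 groups were Lx3B, an L1 family, with Pearson r = 0.977, then MT2_Mm at 0.973, RLTR6B_Mm at 0.973, MERVL_2A-int at 0.964 and ERVB4_3-LTR_MM at 0.963. The measure was taken over log2 group means centred within each experiment, for 814 other families. MERVL-int was number 7 at 0.950. These points share libraries and size factors, and the sorted 2CLC groups lie far from the rest. Over the 7 groups of the time course and washout alone, Lx3B had 0.992, MT2_Mm 0.987 and MERVL-int 0.985. MERVL was less close in rank elsewhere. Over the 4 sorted groups MERVL-int was number 32 at 0.996 and MT2_Mm number 72 at 0.992. Over the 4 groups of the Dppa4 experiment they were number 45 at 0.947 and number 56 at 0.935. Over all 15 groups X2_LINE came closest among the members at 0.896, as number 41 of the 814 families. X8_LINE followed at 0.715, as number 329, and X7B_LINE had -0.05, as number 781.

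X2_LINE, another CR1 family, was listed at 0 in DMSO mESC, and had 4.08 normalized counts in dTAG mESC, 47.5 in DMSO 2CLC and 110 in dTAG 2CLC. The dTAG 2CLC mean was 27.0 times that of dTAG mESC and 2.31 times that of DMSO 2CLC. X2_LINE reached the minimum of 10 counts through its 2CLC means. X8_LINE (CR1) had 6.63 and 38.3 in DMSO mESC and DMSO 2CLC, and 13.5 and 80.1 with dTAG. Mam_R4 had 3.48 and 28.0 in DMSO and 7.97 and 30.9 in dTAG. For X2_LINE, X8_LINE and Mam_R4 both 2CLC means lay above both mESC means, and all 3 were under 10 counts in DMSO mESC. This direction was not particular to them. In DMSO 18 of the 20 members and 884 of 911 repeat families were higher in 2CLC than in mESC, and in dTAG 18 and 869 were.

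The L2 families were also higher in 2CLCs, by less than repeats as a whole. L2a had 3193 normalized counts in DMSO mESC and 5729 in DMSO 2CLC, L2 2220 and 4180, L2b 1608 and 2746, and L2c 1465 and 2875. Their log2 ratios were 0.77 to 0.97 in DMSO and 0.88 to 1.06 in dTAG. The median of all 911 repeat families was 1.38 in DMSO and 1.44 in dTAG, and that of 17331 genes -0.03 and -0.06. All 4 L2 families therefore lay below the median of repeats and above that of genes in both. The summed counts of genes and repeats differ between the groups of this experiment, from 9422898 to 17252246. Scaled to that sum, L2a had 0.37 in DMSO and 0.12 in dTAG, L2c 0.50 and 0.20, L2 0.44 and 0.10, and L2b 0.30 and 0.02. On this scaling, an alternative chosen after the values were seen, X7C_LINE had 6.14 and 3.66.

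Over all members with the minimum mean, 8 of 20 were past 2-fold in 2CLC against mESC in DMSO, all higher, against 68.4% of the 911 repeat families. In dTAG 10 of 20 were, all higher, against 67%. Among these, X2_LINE, Mam_R4 and X5B_LINE had 4.08, 7.97 and 8.06 counts in dTAG mESC and passed the minimum through their 2CLC means. For the DMSO comparison, counting only members with 10 counts or more in DMSO mESC left 3 of 15, X7C_LINE, L4_A_Mam and L4_C_Mam, against 65.1% of 809 families. The median of the 20 members was 0.94 in DMSO and 1.02 in dTAG. MIR had a median of 0.72 and 0.93 with 4 families, the DNA transposons hAT-Charlie and TcMar-Tigger 0.89 and 0.82 with 99, and L1 1.49 and 1.53 with 126. In DMSO 5 of the 20 members lay above the median of all repeats, and in dTAG 7 did.

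The ratios differed among the families of a clade. L4_A_Mam (RTE-X) went from 47.1 to 124 counts in DMSO and from 45.5 to 190 in dTAG, and L4_C_Mam from 29.9 to 65.4 and from 37.9 to 82.3. L3 had log2 ratios of 0.78 and 0.71, and L3b 0.35 and 0.41. X7A_LINE and X7B_LINE, whose names differ from that of X7C_LINE by a letter, had the 2 lowest ratios, at -0.48 and -0.24 in DMSO and -0.48 and -0.54 in dTAG. The means of X7B_LINE were 42.7, 51.3, 36.1 and 34.9 in DMSO mESC, dTAG mESC, DMSO 2CLC and dTAG 2CLC. Fibroblast markers summed to 365 and 755 in the mESC groups and to 1005 and 1728 in the 2CLC groups with DMSO and dTAG, and their part in the ratios was not tested.

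**Figure D4:**
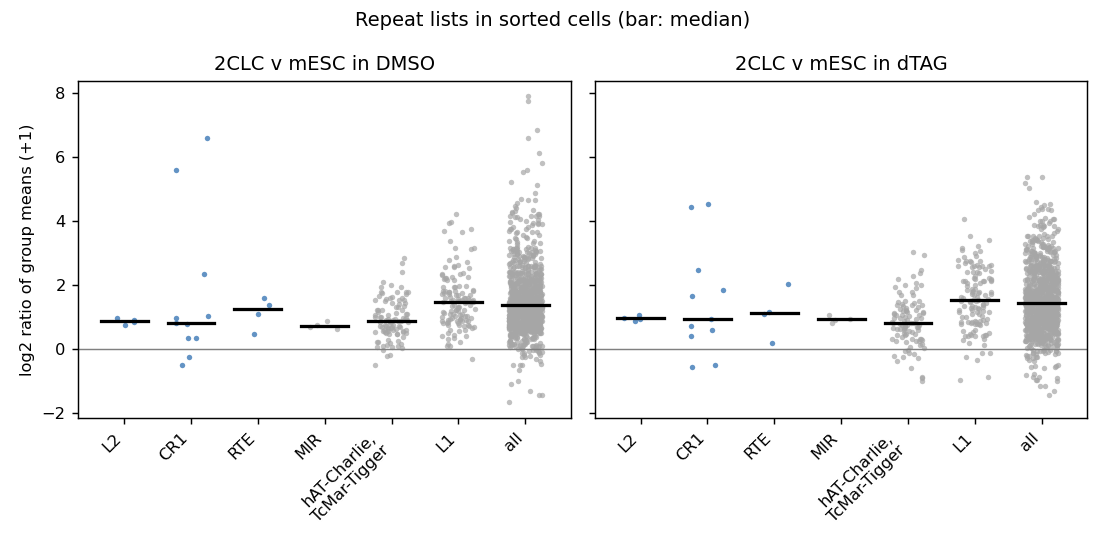
Log2 ratio of the group means plus 1 in 2CLC against mESC, in DMSO (left) and dTAG (right), for repeat families with a mean of at least 10 counts. Each dot is a family, blue for the LINE families outside L1 and grey for others, and bars are medians, with 1 CR1 dot in DMSO (X2_LINE) resting on a group listed at 0. The L2 median was 0.88 in DMSO and 0.97 in dTAG, against 1.38 and 1.44 for all repeat families, and the highest CR1 dot in each is X7C_LINE at 6.60 and 4.52.

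The effect of dTAG within sorted cells was small for most members. In mESC 3 of 20 were past 2-fold, all higher, against 7.46% of 911 families: X7C_LINE at 2.39, X2_LINE, whose DMSO mean was listed at 0, and Mam_R4 at 1.00. X2_LINE and Mam_R4 were under 10 counts in both mESC groups and passed the minimum through their 2CLC means. Counting only members with 10 counts or more in DMSO mESC left 1 of 15, X7C_LINE, against 4.45% of 809 families. L4_B_Mam at -0.22, X7A_LINE at -0.07 and L4_A_Mam at -0.05 were the lowest, and the L2 families had -0.02 to 0.09. In 2CLC 3 of 20 were, all higher, against 6.81%: X2_LINE at 1.19, X8_LINE at 1.05 and CR1_Mam, which went from 45.6 to 94.8 counts, at 1.04. X3_LINE had the lowest ratio at -0.74, and the L2 families had 0.09 to 0.23. The median of all repeat families was 0.24 in mESC and 0.30 in 2CLC. The 4 comparisons of sorted cells share groups.

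In the Dppa4 experiment no member differed between groups once p was adjusted over all repeat families. Of the 25 members 14 had enough reads to be tested, among 782 families, and the test was limma on log2 values with a pseudocount of 1. For UNC0638 against DMSO in WT 0 of 14 members had an adjusted p under 0.05 (background 0%), with 1 at an unadjusted p under 0.05. In KO the count was 0 of 14 (background 0%), with 1 at the unadjusted level. KO against WT gave 0 of 14 in DMSO (background 0.639%), with 2 unadjusted, and 0 of 14 in UNC0638 (background 1.15%), with 3 unadjusted. The KO effect of UNC0638 minus the WT effect gave 0 of 14 (background 0%), with 1 unadjusted. edgeR and DESeq2 on the recovered reads called 0 members in each of the 5 as well.

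Most members with enough reads were slightly higher with UNC0638 in WT, as were most repeat families. With the authors' size factors the log2 fold change was above 0 for 13 of 14 members and for 685 of all 782 families. The 3 WT UNC0638 libraries lay above the 3 WT DMSO libraries for 4 of the 14, L2b, L2c, Plat_L3 and X7B_LINE, where 27.9% of all families did not overlap. In KO the 2 treatments overlapped for all 14, beside 6.39% of families that did not. L2b had 973, 970 and 842 normalized counts in WT DMSO and 1127, 1038 and 1041 in WT UNC0638. L2c had 704, 677 and 599 in WT DMSO and 1006, 706 and 817 in WT UNC0638.

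L2a overlapped between the 4 groups. It had 1406, 1631 and 1314 normalized counts in WT DMSO, 1961, 1497 and 1735 in WT UNC0638, 1623, 1305 and 1668 in KO DMSO, and 1816, 1837 and 965 in KO UNC0638. Library 3 of KO UNC0638 is the lowest of all. The log2 fold change with UNC0638 was 0.25 in WT (SE 0.25, limma adjusted p = 0.62) and -0.04 in KO (SE 0.25, limma adjusted p = 0.98). Without library 3 of KO UNC0638 the latter was 0.26 (limma adjusted p = 0.54). L2 had 714 counts in that library against 1032 to 1555 in the other 11. L3 had 733, 578 and 692 in WT DMSO, 696, 688 and 794 in WT UNC0638, 701, 528 and 618 in KO DMSO, and 746, 668 and 494 in KO UNC0638. Its 4 groups overlap.

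The median log2 fold change of all 782 families with UNC0638 in WT was 0.43, and that of genes -0.0015. The 4 L2 families lay below it, at 0.21 to 0.34, and L1 had a median of 0.57. When the counts were scaled to the repeat families alone, L2a had -0.13 and L3 -0.26 in WT, so the direction of these small values depends on the scaling. In KO the median of all families was 0.05 and the L2 families had -0.23 to -0.02. KO against WT gave a median of -0.34 in UNC0638, with L2 at -0.41 to -0.21, and 0.03 in DMSO, with L2 at 0.08 to 0.16.

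X7C_LINE was at 5.82, 27.1 and 52.4 normalized counts in WT DMSO and at 31.7, 33.6 and 77.4 in WT UNC0638. In KO it had 33.3, 17.3 and 12.8 in DMSO and 11.0, 24.7 and 10.5 in UNC0638. With UNC0638 all WT libraries lay above all KO libraries, and with DMSO WT and KO overlap. The log2 fold change of KO against WT in UNC0638 was -1.55 (SE 0.66, unadjusted p = 0.0276 and limma adjusted p = 0.32), and in DMSO -0.08 (SE 0.66, limma adjusted p = 0.999). UNC0638 gave 1.04 in WT (SE 0.66, limma adjusted p = 0.47) and -0.43 in KO (SE 0.66, limma adjusted p = 0.98), and the difference of these effects was -1.47 (SE 0.93, limma adjusted p = 0.77). Single libraries move these values. Without library 1 of WT DMSO the WT effect was 0.20 and the difference of effects -0.63, and without library 3 of WT DMSO they were 1.69 and -2.12. Leaving out each library in turn gave -0.80 to -0.058 for the KO effect and -1.92 to -1.14 for KO against WT in UNC0638. These values rest on 5 to 97 reads a library.

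MERVL-int, beside it, was lower in KO by -2.54 in DMSO (SE 0.53, limma adjusted p = 0.018) and by -4.53 in UNC0638 (SE 0.53, limma adjusted p = 1.2e-05). X7C_LINE reads were found in all 6 KO libraries, as were reads of MERVL-int, L2a and L3. In the KO libraries the 10 markers of 2CLCs summed to 0 in DMSO and to 0 to 3.49 in UNC0638, with at most 1 of the 10 above 0. In WT those markers summed to 104 to 1684 in DMSO and 902 to 7176 in UNC0638. Fibroblast markers summed to 1153 to 1715 in the 6 KO libraries and to 1893 to 2920 in the 6 WT libraries, with no overlap, and their part in the KO against WT values was not tested.

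X7B_LINE had the largest fold change among the 14 members with UNC0638 in WT. It had 2.33, 19.7 and 10.5 normalized counts in WT DMSO, 50.2, 40.2 and 32.7 in WT UNC0638, 13.7, 25.5 and 41.8 in KO DMSO, and 12.9, 15.1 and 15.7 in KO UNC0638. The WT groups do not overlap, and the KO groups do. The log2 fold change was 2.16 in WT (SE 0.63, unadjusted p = 0.00226 and limma adjusted p = 0.29) and -0.72 in KO (SE 0.63, limma adjusted p = 0.98). The difference of the effects was -2.88 (SE 0.89, unadjusted p = 0.00363 and limma adjusted p = 0.65). KO against WT was 1.47 in DMSO (SE 0.63, unadjusted p = 0.0289 and limma adjusted p = 0.63). In UNC0638 it was -1.42 (SE 0.63, unadjusted p = 0.0339 and limma adjusted p = 0.34), so the genotypes differed in opposite directions in the 2 treatments. The family had 2 to 57 reads a library, and in EHMT2-dTAG cells its log2 ratio of dTAG to DMSO was -0.30, 0.14 and 0.24 at the 3 times.

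Low counts marked the remaining members with an unadjusted p under 0.05 or near it. CR1_Mam had 16.3, 11.1 and 10.5 normalized counts in WT DMSO and 0.978, 0 and 10.4 in KO DMSO, a log2 fold change of -2.24 (SE 0.91, limma adjusted p = 0.53). In UNC0638 it had 29.9, 4.67 and 28.7 in WT and 12.9, 18.3 and 5.24 in KO, and its effect of UNC0638 in KO was 2.07 (SE 0.91, limma adjusted p = 0.90). L4_B_Mam, an RTE-X family, had 19.8, 12.3 and 7.87 in WT DMSO and 6.85, 3.06 and 0 in KO DMSO, and 29.1, 13.1 and 7.98 in WT UNC0638 and 7.36, 0 and 0.873 in KO UNC0638. Its KO libraries lay below its WT libraries in both treatments. KO and WT did not overlap for 3 of the 14 members in DMSO, beside 11% of families. CR1_Mam and L4_B_Mam were lower in KO there and Plat_L3 was higher. In UNC0638 they did not overlap for 3, beside 16.4%, and L4_B_Mam, X7B_LINE and X7C_LINE were all lower in KO. Of all families that did not overlap in UNC0638, 112 were lower in KO and 16 higher. L4_B_Mam had log2 fold changes of -2.09 (SE 1.01, limma adjusted p = 0.73) and -2.64 (SE 1.01, limma adjusted p = 0.27). X3_LINE, the RTE-BovB family, and Mam_R4 did not have enough reads to be tested, with 0 to 21 and 0 to 3 reads a library.

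**Figure D5:**
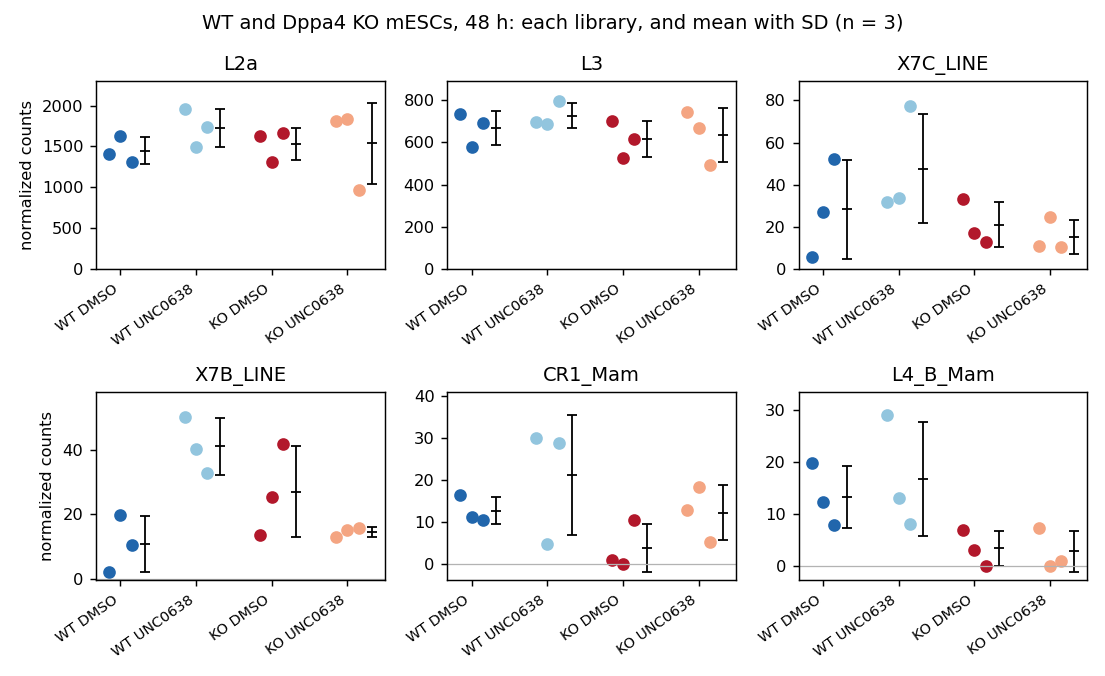
Normalized counts of 6 LINE families outside L1 in the 12 libraries of the Dppa4 experiment, with dots for libraries and the mean with SD (n = 3) beside them. Axes are linear and include 0. L2a and L3 overlap in all 4 groups, X7B_LINE is higher in all 3 WT UNC0638 libraries (32.7 to 50.2) than in the 3 WT DMSO libraries (2.33 to 19.7), and L4_B_Mam is at 0 to 7.36 in KO.

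Of 17 genes of H3K9 methylation and the HUSH complex, which silence repeats, all 17 were tested in the same experiment. None had an adjusted p under 0.05 by limma for UNC0638 in WT or in KO, with 0 and 1 at an unadjusted p under 0.05, but over all 17271 genes the calls were only 0 in WT and 101 in KO. KO against WT gave 0 in DMSO and 2 in UNC0638, among 1145 and 772 genes called of 17271.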

How the data were processed

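RNA-seq of mouse ESCs was analysed from the authors' tables for 15 groups of 3 libraries. The authors trimmed reads with Trim Galore (0.6.7), aligned them to mm10 with STAR (2.7.10), writing 1 place at random for reads with many, and counted genes and repeat families with TEcounts. The deposited signal values are counts divided by DESeq2 (1.34.0) size factors, given as 1 mean per group for 3 experiments and per library for the Dppa4 experiment. Reads of old repeats that lie within introns or gene ends cannot be told from host transcripts in such counts. Deposited fold changes and p-values of the authors' own comparisons were not used. The genome positions and sequences of the copies were not used here.

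In the Dppa4 libraries 100% of values were whole multiples (tolerance 0.01) of the value of 1 read, which gave 8727627 to 13469447 reads a library, 313737 to 807204 of them in repeats. The 12 libraries were fitted with limma (3.58.1, trend, 4 groups, 5 contrasts) on log2 of the value plus 1, after edgeR's expression filter (4.0.16), with Benjamini-Hochberg adjustment over 782 repeat families. Calls needed an adjusted p under 0.05. The further demand of an absolute log2 fold change of 1 removed none of the calls. edgeR quasi-likelihood and DESeq2 (1.42.0) on the recovered reads were alternatives. R was 4.3.3. For the means, log2 of the ratio of means plus 1 was taken over families with a mean of at least 10, with no test. Other pseudocounts, filters and scalings, a fit with the replicate number as a block, and fits without each library in turn, were tried. The fit was tested on simulated data. No libraries of a group agreed within sampling noise.

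The families, lists and tests were chosen with earlier results of these data known. Members are named where they hold the most reads overall or in their clade, where they were among the 3 highest or lowest in a comparison of means, or were X7C_LINE. L4_C_Mam, X5B_LINE and X7D_LINE were named outside this rule, after their values were seen.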

Additional observations from a re-analysis of the deposited data

How the results depend on the processing

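All 85 alternatives to the 5 Dppa4 comparisons called 0 members. Of 63 alternatives to the 9 counts of members past 2-fold, 43 stayed within 1.5 times. With a mean of at least 50 required, the counts were 0 at 24 h, 0 at 7 d, 3 and 4 in 2CLC against mESC in DMSO and dTAG, and for dTAG against DMSO 1 in sorted mESC and 0 in sorted 2CLC. Without a filter they were 5 at 7 d, 3 at 15 d and 1 in Recovery against DMSO. Pseudocount 5 gave 1 at 7 d, 1 for dTAG in sorted mESC and 1 for dTAG in sorted 2CLC, and centring on the median of all repeat families 1 at 7 d and 1 for dTAG in sorted 2CLC. Of the alternatives chosen after seeing the data, a mean of at least 10 in the reference group gave 0 at 24 h, 0 at 15 d, 3 in 2CLC against mESC in DMSO and 1 for dTAG in sorted mESC, and scaling to the total of genes and repeats gave 5 in 2CLC against mESC in DMSO and 1 for dTAG in sorted 2CLC. For dTAG in sorted 2CLC, centring and scaling to the total each gave 0 members higher and 1 lower, where the 3 of the main count were higher. In 2CLC against mESC in dTAG, scaling to the total gave 6 higher and 2 lower, where the main count was 10 higher. The 2 lower were X7A_LINE at -1.26 and X7B_LINE at -1.38. Stricter filters test fewer families. The cause of the other shifts was not tested.

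Centring on the median of all repeat families left 5 of 20 members above 0 in DMSO and 7 in dTAG for 2CLC against mESC, where 18 were before in each. Of the members past 2-fold it turned L4_C_Mam to -0.27 and X5B_LINE to -0.34 in DMSO, and L2c to -0.38, L4_B_Mam to -0.27 and L4_C_Mam to -0.34 in dTAG. Scaling to repeats alone turned L4_B_Mam to -0.14, L2a to -0.13 and L3 to -0.26 for UNC0638 in WT, L3 to -0.0079 in KO, L2a to 0.083 and L3 to 0.094 for KO against WT in UNC0638, and L2a to 0.043 and L3 to 0.25 for the difference of effects. For L2a with UNC0638 in KO, edgeR gave 0.0201 and DESeq2 0.0064. None of these was called in the Dppa4 experiment. Leaving out libraries in turn, X7C_LINE ran from -0.92 to 0.57 for KO against WT in DMSO. In KO, UNC0638 gave -0.20 to 0.26 for L2a, -0.089 to 0.21 for L3 and -1.21 to 0.32 for L4_B_Mam, and in WT -0.043 to 1.18 for CR1_Mam and -0.26 to 0.61 for L4_B_Mam. KO against WT in UNC0638 gave -0.38 to 0.086 for L2a. The difference of effects ran from -0.45 to 0.0094 for L2a, -0.21 to 0.082 for L3 and -1.42 to 0.11 for L4_B_Mam. X7B_LINE kept its direction in all alternatives for UNC0638 in WT, at 1.43 to 2.74 (limma, edgeR and DESeq2 adjusted p 0.15 to 0.86).

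The labels of the Dppa4 experiment do not say whether replicate numbers match clones across groups, and no pairing was assumed. Same-numbered libraries correlated at -0.11 to 0.21 in their deviations, which cannot settle this with 3 libraries a group. The replicate block called 0 members in all 5 comparisons. Over all families the block called 7 for KO against WT in DMSO and 12 in UNC0638, and DESeq2 9 and 19, against 5 and 9. No paired analysis was possible for the group means because the tables hold no libraries, although the time course and washout groups share their clones. A fit of only the groups compared was not possible for the difference of effects, which uses all 4. Depth limits the members with few reads, such as X7B_LINE at 2 to 57 a library.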
